A study of Mus musculus with 10 samples.

Results

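The 10 genes described here encode the intestinal REG lectins and other antimicrobial or barrier products that gut epithelium raises when microbes, cytokines or injury call for them. They were taken by name: the lectins Reg1, Reg3a, Reg3b, Reg3g and Reg4, the resistin-like molecule Retnlb, the serum amyloid A genes Saa1 and Saa2, the small proline-rich gene Sprr2a3 and the polymeric immunoglobulin receptor Pigr. All 10 were found by gene identifier among the 54838 genes listed for each library. RNA-seq of polyadenylated RNA was performed on jejunal crypts of 10 mice, with 1 animal per library, 5 of them WT and 5 Arid3a cKO. The cKO mice carried VillinCre-ERT2+/− and Arid3a fl/fl, so that tamoxifen deletes Arid3a, which encodes a DNA-binding protein, in Villin-expressing intestinal epithelium and not in stroma or immune cells. Both groups received tamoxifen on 3 days and crypts were taken 1 month after the first injection, once villi had been scraped off the tissue. Neither the strain, sex and age of the animals nor the Cre and floxed alleles of the WT mice are given in the labels. The animal identifiers of the 2 genotypes share no stem, so genotype and colony, litter or cage cannot be told apart.

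REG proteins are small secreted C-type lectins. REG3B and REG3G bind bacterial surfaces and keep bacteria away from the epithelium, and their genes are classic targets of microbial signals relayed through MYD88 and of IL-22 acting through STAT3. REG1 is linked to epithelial growth and repair, REG4 marks deep crypt secretory and enteroendocrine cells, RELMβ (Retnlb) is a goblet cell product driven by type 2 cytokines, serum amyloid A proteins carry retinol and respond to attached bacteria, SPRR2A proteins are antimicrobial, and PIGR carries IgA across the epithelium into the lumen.

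The targeted gene was lower in the libraries labelled cKO. Arid3a had 1.92, 2.07, 2.75, 2.68 and 2.69 CPM in WT replicates 1 to 5, where CPM is the count relative to library size after TMM scaling. In cKO replicates 1 to 5 it had 0.303, 0.516, 0.490, 0.884 and 1.17 CPM. The groups did not overlap, and the log2 fold change was -1.84 ± 0.32 (SE, adjusted p = 0.00204, edgeR quasi-likelihood F test, Benjamini-Hochberg over 14719 tested genes). Library totals ran from 27050455 to 28152743 counts in WT and from 28314069 to 31053622 in cKO, higher in every cKO library (two-sided exact permutation p = 0.00794, the smallest that 252 assignments can give). Crypt genes were abundant: summed Paneth cell markers lay between 5634 and 14152 CPM and summed stem cell markers between 4372 and 8970 CPM over the 10 libraries. Genes of mature enterocytes, the absorptive cells of the villus, were also present in every library, and they differed between the groups, as given beside Reg1.

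Across the 10 genes, 1 passed the test. Reg1 was higher in cKO crypts by a log2 fold change of 1.66, with no overlap between groups. Of the other members, Reg3a, Reg3b, Reg3g, Reg4, Sprr2a3 and Pigr were tested and did not pass, and Retnlb, Saa1 and Saa2 were too low to be tested. Of all 14719 genes tested, 28.3% passed, 15.6% as higher and 12.7% as lower in cKO, and 1 of 7 tested members (14.3%) is no larger a share. The tested members had a median log2 fold change of 1.06 beside -0.03 for all tested genes, and 6 of these 7 estimates belong to genes that did not pass. The 95% intervals given for single genes are not adjusted for the number of genes tested.

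**Figure D1:**
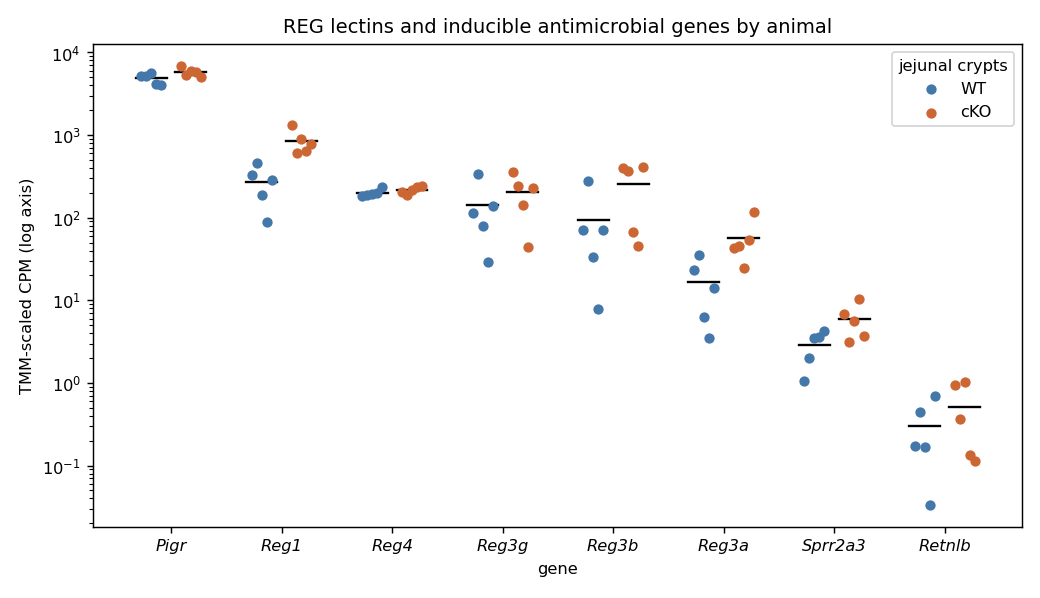
TMM-scaled CPM (log axis) of 8 members in each animal, 5 WT (blue) and 5 cKO (orange), with black bars at the group means. Only Reg1 shows 2 separate groups, from 88.1 to 455 CPM in WT and from 602 to 1330.3 CPM in cKO, while Reg3b and Reg3g spread widely within each genotype and Reg4 and Pigr barely spread.

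Reg1, Reg3a, Reg3b and Reg3g lie with Reg2 and Reg3d in a cluster of 6 genes that spans 98.2 kb of chromosome 6 (chr6:78370657-78468872, GRCm38, GENCODE annotation). Within it Reg3b occupies chr6:78370657-78373466, Reg3a chr6:78380709-78383827 and Reg1 chr6:78422711-78428667 on the plus strand, and Reg3g chr6:78466269-78468872 on the minus strand. None of the 75-base windows of the transcripts of these 4 genes occurs in a transcript of another gene, so reads of that length can be told apart between them. The other genes of the cluster were nearly silent, with at most 7 counts of Reg2 and 19 counts of Reg3d in any library. The 250 bases before the RefSeq start of the 4 expressed genes are shown to let their regulatory sequence be set beside their levels. RefSeq starts differ from the gene bounds above: the windows of Reg1 and, for most of its length, Reg3b lie inside the GENCODE span of the gene (sequence from RefSeq, GRCm38.p6, each 5′ to 3′ on the gene's own strand, capitals marking a STAT motif, TTCNNNGAA, or a TATA box, TATAAA on the gene's strand).
Reg1 promoter, chr6:78425733-78425982, plus strand: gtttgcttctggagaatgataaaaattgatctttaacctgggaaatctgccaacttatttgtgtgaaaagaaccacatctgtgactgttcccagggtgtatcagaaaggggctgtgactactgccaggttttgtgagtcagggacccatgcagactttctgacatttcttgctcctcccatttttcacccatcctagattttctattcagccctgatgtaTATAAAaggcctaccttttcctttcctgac
Reg3a promoter, chr6:78380459-78380708, plus strand: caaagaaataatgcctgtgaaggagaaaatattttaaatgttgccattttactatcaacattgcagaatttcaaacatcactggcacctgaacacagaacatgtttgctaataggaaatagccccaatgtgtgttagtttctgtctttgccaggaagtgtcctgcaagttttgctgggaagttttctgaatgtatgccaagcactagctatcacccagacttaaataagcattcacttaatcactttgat
Reg3b promoter, chr6:78370635-78370884, plus strand: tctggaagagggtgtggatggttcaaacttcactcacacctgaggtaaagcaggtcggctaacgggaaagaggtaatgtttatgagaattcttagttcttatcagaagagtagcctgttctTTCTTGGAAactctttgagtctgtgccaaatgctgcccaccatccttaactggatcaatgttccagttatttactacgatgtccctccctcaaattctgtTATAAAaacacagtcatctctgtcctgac
Reg3g promoter, chr6:78468875-78469124, minus strand: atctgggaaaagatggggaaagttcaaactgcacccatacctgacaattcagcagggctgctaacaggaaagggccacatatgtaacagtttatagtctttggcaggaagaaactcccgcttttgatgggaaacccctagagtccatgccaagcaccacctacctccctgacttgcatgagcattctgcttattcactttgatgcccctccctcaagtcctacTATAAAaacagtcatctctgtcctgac

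TATAAA was found before Reg1, Reg3b and Reg3g, beginning 30, 29 and 27 bases ahead of the start, and not before Reg3a. It occurs in 7.59% of the 32851 promoters of the same length. The STAT motif, which reads the same on both strands, was found once before Reg3b, beginning 129 bases ahead of the start, and in 7.02% of all promoters. In the same 250 bases of these 4 genes there was no match on either strand to ATTAAA, ascribed to ARID3A (12.7% of all promoters hold it), or to the HNF1 core GTTAAT (6.43%). Of the other members with a promoter entry, Reg4 held 1 match to ATTAAA and 1 to GTTAAT, Sprr2a3 held 1 match to ATTAAA and 1 to the STAT motif, and Pigr, Saa1 and Saa2 held none of the 4 motifs. A missing match says only that those letters are not in this window. Aligned without gaps at the shift with the most matches, the promoters of Reg3b and Reg3g were identical at 53.2% of 248 bases. The other pairs among the 4 genes reached 30.0% to 36.0%, and the identity that unrelated sequences reach in this way was not computed.

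Reg1 rose in the cKO. Its levels were 331, 455, 189, 88.1 and 285 CPM in WT replicates 1 to 5, and 1330.3, 602, 895, 650.0 and 786 CPM in cKO replicates 1 to 5. The lowest cKO animal, replicate 2, stood above the highest WT animal, also replicate 2, so the groups did not overlap, as for 12% of all tested genes in this direction. The log2 fold change was 1.66 ± 0.41 (SE, 95% interval 0.73 to 2.60, adjusted p = 0.0173, edgeR), or 3.16-fold on the linear scale with an interval of 1.65 to 6.05. Deposited TPM, which corrects for transcript length, gave 513 ± 256 in WT and 1540.1 ± 533 in cKO (SD, n = 5 each). Reg1 stayed past the threshold when any 1 animal was left out, with log2 fold changes from 1.44 without WT replicate 4 to 1.93 without WT replicate 2.

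Enterocyte markers moved in the same direction. All 10 of 10 marker genes were higher in cKO, beside 15.6% of all tested genes. Their median log2 fold change was 1.82, with Apoa4, a chylomicron apolipoprotein, at 2.06 and Lct, lactase, at 1.92. Their summed level was 5615, 8487, 3040.3, 2051 and 4374 CPM in WT replicates 1 to 5 and ran from 9705 to 18244 CPM in cKO with a median of 14049.5 CPM. The lowest value of any of these markers was 39.2 CPM, that of Lct in a WT library. Among the 5 WT animals Reg1 followed the same order as this sum, replicate 2 highest, then 1, 5, 3 and 4, and Reg3a followed it too. Among the 5 cKO animals no animal held the same rank in Reg1 and in the sum. Set against 1000 CPM of enterocyte markers, Reg1 was 42.9 to 65.1 CPM in WT (median 59.0) and 38.0 to 94.7 CPM in cKO (median 45.5), and these ranges overlapped. Without WT replicates 3 and 4, the animals with the lowest marker sums (left out after their values had been seen), Reg1 passed at 1.26 (adjusted p = 0.0240, edgeR), but the marker sums of the WT animals left, 4374 to 8487 CPM, still all lay below those of the cKO animals. The part of enterocyte RNA in the difference in Reg1 was not tested. The libraries hold the fraction left once villi had been scraped off. In its RNA, more cells of a type, from crypt or villus, and more RNA per cell cannot be told apart.

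**Figure D2:**
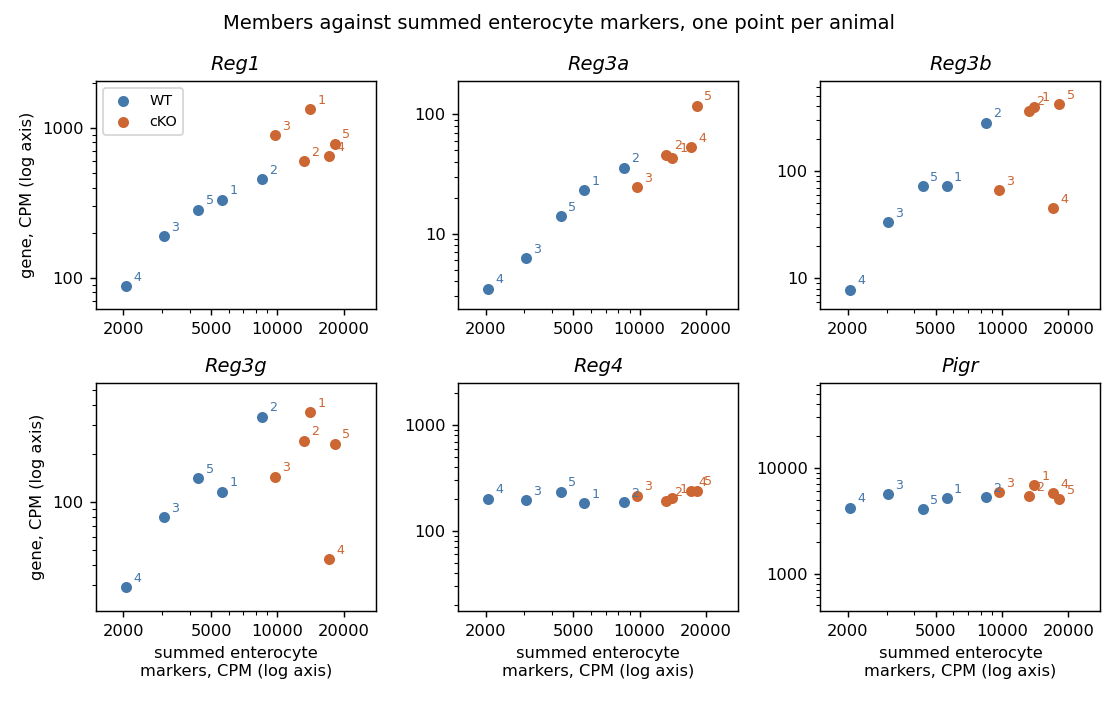
CPM of 6 members (log axis) against the summed CPM of 10 enterocyte markers (log axis), 1 point per animal labelled with its replicate number, WT in blue and cKO in orange. In WT, Reg1 and Reg3a climb with the marker sum from replicate 4 to replicate 2, cKO replicate 4 has 45.1 CPM of Reg3b and 43.7 CPM of Reg3g beside a high marker sum, and Reg4 and Pigr are nearly level.

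Reg3a, a lectin closely related to REG3G, had the highest estimated change and did not pass. Its levels were 23.2, 35.9, 6.24, 3.48 and 14.1 CPM in WT replicates 1 to 5, and 43.3, 45.9, 24.4, 53.2 and 118 CPM in cKO replicates 1 to 5. The cKO animals other than replicate 3 exceeded every WT animal, and the groups overlapped through cKO replicate 3 and WT replicate 2. The log2 fold change was 1.78 ± 0.65 (SE, 95% interval 0.30 to 3.25, adjusted p = 0.0707, edgeR). The call depended on the tool and on 1 animal: the adjusted p was 0.0267 by DESeq2, 0.0427 by limma-voom and 0.0326 by edgeR without WT replicate 2, and over all animals left out in turn it ran from 0.0326 to 0.172. In these fits 15.7%, 16% and 17.2% of all genes tested were called higher in cKO. Per 1000 CPM of enterocyte markers Reg3a lay between 1.70 and 4.22 CPM in WT and between 2.52 and 6.45 CPM in cKO.

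Reg3b, a bactericidal lectin, varied more between animals than almost any other gene. It had 71.6, 280.4, 33.3, 7.84 and 71.7 CPM in WT replicates 1 to 5, and 396, 363, 66.5, 45.1 and 417 CPM in cKO replicates 1 to 5. Within WT the highest animal was 35.8 times the lowest, and the cKO animals fell into 3 at 363 to 417 CPM and 2, replicates 3 and 4, at 66.5 and 45.1 CPM. Its log2 fold change was 1.47 ± 0.98 (SE, adjusted p = 0.293, edgeR), and 2.48 without WT replicate 2 (adjusted p = 0.0826). The 95% interval with all animals, -0.76 to 3.70, held both a lower level in cKO and a 13.0-fold higher one. Of the animals whose identifiers share a stem, WT replicates 2 and 3 (280.4 and 33.3 CPM), WT replicates 4 and 5 (7.84 and 71.7 CPM) and cKO replicates 4 and 5 (45.1 and 417 CPM) lay far apart, and cKO replicates 1 and 2 (396 and 363 CPM) lay close together.

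Reg3g, its close relative with activity against Gram-positive bacteria, had 116, 339.8, 79.7, 29.2 and 140.1 CPM in WT replicates 1 to 5. In cKO replicates 1 to 5 it had 361, 241, 143, 43.7 and 229.9 CPM. WT replicate 2 was above 4 of the 5 cKO animals and the ranges nearly coincided. For Reg3g the log2 fold change was 0.53 ± 0.69 (SE, 95% interval -1.03 to 2.10, adjusted p = 0.597, edgeR), and leaving out 1 animal moved it between 0.22 without cKO replicate 1 and 1.16 without WT replicate 2. In both genotypes replicate 4 was the lowest for Reg3b and for Reg3g, a number that does not pair the animals.

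Whether Reg1 changed differently from its neighbours was tested on the log2 ratio of their CPM in each library, a comparison chosen after the values had been seen. The ratio of Reg1 to Reg3g was 1.16 ± 0.47 in WT and 2.30 ± 1.01 in cKO (SD, n = 5 each), a difference of 1.14 with overlapping groups. A two-sided exact permutation test gave p = 0.0317, and 0.0952 after Benjamini-Hochberg adjustment over the 3 ratios computed, so this difference did not pass. The ratio of Reg1 to Reg3a differed by -0.24 (exact permutation p = 0.643, adjusted 0.964) and that to Reg3b by 0.02 (exact permutation p = 0.968, adjusted 0.968). The sign of the latter pair turned when single animals were left out.

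**Figure D3:**
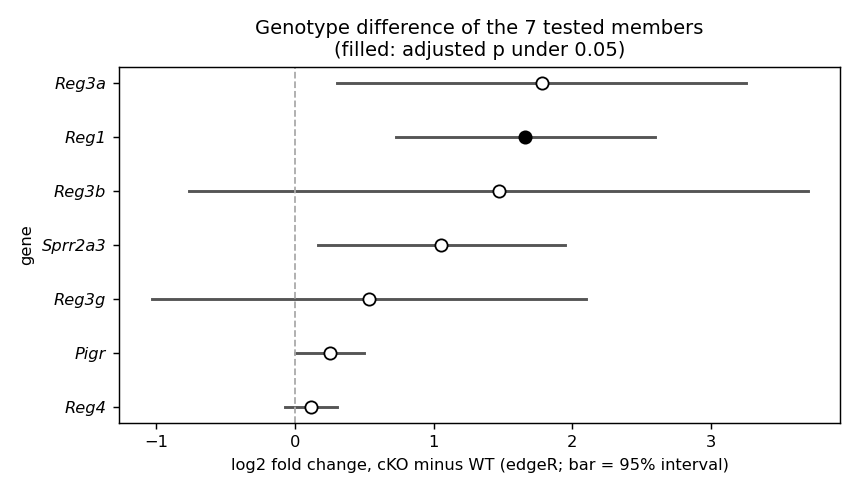
Log2 fold change, cKO minus WT, of the 7 tested members from edgeR, with bars for the 95% interval and a filled point where the adjusted p is under 0.05. Reg1 alone is filled, the bars of Reg3b and Reg3g reach from below 0 to 3.70 and 2.10, and those of Pigr and Reg4 are the narrowest.

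The spread between animals set the lectins apart from one another. Around its genotype means, log2 CPM had an SD of 1.71 for Reg3b, 1.23 for Reg3g, 1.08 for Reg3a and 0.72 for Reg1, beside a median of 0.14 over the 9208 tested genes with a mean of at least 10 CPM. Reg3b exceeded 99.9% of those genes, Reg3g 99.8%, Reg3a 99.7% and Reg1 98.8%. Reg4, at 0.14, exceeded 50.4% of them and Pigr, at 0.19, exceeded 74.3%. Both genotypes showed it, with an SD of log2 CPM of 1.85 in WT and 1.56 in cKO for Reg3b and of 1.28 and 1.17 for Reg3g, while that of Reg1 was 0.91 in WT and 0.45 in cKO. These values describe 5 animals per group and were not compared by a test.

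**Figure D4:**
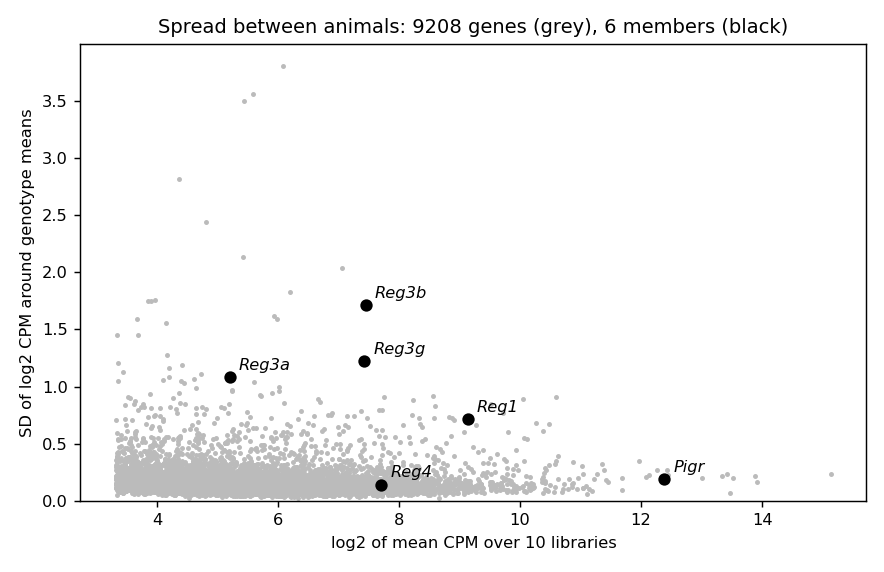
SD of log2 CPM around the genotype means (vertical axis) against log2 of the mean CPM (horizontal axis) for 9208 tested genes in grey, with 6 members in black. Reg3b (1.71), Reg3g (1.23), Reg3a (1.08) and Reg1 (0.72) stand above most genes, whereas Reg4 (0.14) and Pigr (0.19) lie within the bulk.

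With genotype means removed, the gene whose log2 CPM ran most like Reg3g over the 10 libraries was Cdc42 (Pearson r = 0.967). Reg3b came second (r = 0.949), followed by Chfr (0.947), Uqcrc2 (0.946) and Ufsp2 (0.941). The likeness of Reg3g to Reg1 was 0.798 and to Reg3a 0.614, and to Reg4 it was -0.355. For Pigr the closest genes were Chpf2 (0.965), Sft2d2 (0.949), Anapc2 (0.932), Cog2 (0.918) and Etv3 (0.913). For Reg1, added to the list after its values had been seen, they were Ugt1a7c (0.973), Gsta1 (0.964), Mocos (0.960), Leprotl1 (0.958) and Creb3 (0.957), of which Ugt1a7c and Gsta1 encode conjugating enzymes of xenobiotic metabolism. The points of each such comparison share their libraries, the genes were picked as the highest of 9208, and no test was made of them. Saa1 was too low for such a comparison.

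Reg4, the lectin of secretory cells on chromosome 3 (chr3:98222156-98236748, plus strand), was steady. It had 182, 187, 196, 202 and 234 CPM in WT replicates 1 to 5, and 203, 191, 215, 239 and 239.5 CPM in cKO replicates 1 to 5. The ranges nearly coincided. The log2 fold change was 0.12 ± 0.09 (SE, 95% interval -0.07 to 0.31, adjusted p = 0.328, edgeR), and the upper end of this interval is a 1.24-fold higher level. The estimate was 0.20 without WT replicate 5, and the sign turned to -0.01 with scaling by library size only. Enteroendocrine markers, 5 of 10 of them higher in cKO and none lower, summed to 394 to 473 CPM in WT and 536 to 774 CPM in cKO. Goblet cell markers, 1 of 8 lower, summed to 2911 to 4022 and 3772 to 4473 CPM. Of all tested genes 15.6% were higher and 12.7% lower in cKO.

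Pigr (chr1:130826684-130852249, plus strand) was the most abundant member. It had 5189.6, 5262, 5612, 4205 and 4067 CPM in WT replicates 1 to 5, and 6871, 5364, 5903, 5769 and 5059 CPM in cKO replicates 1 to 5. The groups overlapped, with 3 cKO animals above every WT animal and WT replicates 4 and 5 below every cKO animal. Pigr had a log2 fold change of 0.25 ± 0.11 (SE, 95% interval 0.00 to 0.50, adjusted p = 0.118, edgeR). Per 1000 CPM of enterocyte markers Pigr was 620 to 2050.4 CPM in WT and 277 to 608 CPM in cKO, without overlap. The marker sums themselves did not overlap, at 2051 to 8487 CPM in WT and 9705 to 18244 CPM in cKO. A gene whose own level hardly changes therefore tends to be lower in cKO by this ratio. Genes of the IgA that PIGR carries were lower in the cKO crypt libraries: Igha by 1.91 (adjusted p = 0.00505, edgeR) and Jchain, the joining chain of polymeric IgA, by 1.95 (adjusted p = 0.00196, edgeR) on the log2 scale. Of the 7 plasma cell and IgA genes, 6 were tested and 3 were lower, beside 12.7% of all tested genes. The third was Txndc5, a protein disulfide isomerase, which fell by 0.26. The sum of the 7 genes lay between 384 and 419 CPM in WT and between 239 and 281 CPM in cKO, most of it Txndc5. Tnfrsf17, a defining receptor of plasma cells, had at most 3 counts in any library. The libraries hold isolated crypts and not whole tissue, so these values do not give the level of IgA genes in the intestine.

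Sprr2a3 (chr3:92285417-92291405, plus strand) had 1.04, 1.997, 3.46, 3.55 and 4.22 CPM in WT replicates 1 to 5, and 6.91, 3.10, 5.63, 10.3 and 3.67 CPM in cKO replicates 1 to 5. The 3 highest animals were cKO and the others intermingled. The log2 fold change was 1.06 ± 0.40 (SE, 95% interval 0.17 to 1.95, adjusted p = 0.0730, edgeR), and it passed by DESeq2 (adjusted p = 0.0181) and by edgeR without cKO replicate 2 (adjusted p = 0.0474, with 13.3% of all genes called higher). Its value is uncertain, because 47.5% of its 75-base windows also occur in transcripts of Sprr2a1 or Sprr2a2, whose own windows were shared at 94.3% and 94.7%, and the counting split such reads by estimate. Most counts were given to Sprr2a2, at 66.3 to 147 CPM in WT and 127 to 345 CPM in cKO (log2 fold change 0.80, adjusted p = 0.0856, edgeR). Sprr2a1 passed at 0.94 (adjusted p = 0.0358, edgeR). Summed over the 3 genes, which leaves the split aside, the log2 fold change was 0.81 ± 0.31 (SE, adjusted p = 0.0827, edgeR) and did not pass. The other 11 SPRR genes listed were not tested for lack of counts, and 10 of these had at most 3 counts in every library.

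Retnlb, Saa1 and Saa2 were hardly expressed. Retnlb had 5, 13, 5, 1 and 19 counts in WT replicates 1 to 5 and 28, 10, 29, 4 and 3 counts in cKO replicates 1 to 5, at most 1.01 CPM, with cKO replicates 1 and 3 above every WT animal and the ranges overlapping. Saa1 had 1 count in WT replicate 3, 1 each in cKO replicates 3 and 4 and none elsewhere. Saa2 had 1 count in WT replicate 2 and none elsewhere, so that no fold is given for either gene. A count of 0 allows up to 3 counts, or 0.0966 to 0.111 CPM at these totals, which covers counting error only. The 2 genes share 18.5% and 17.8% of their windows with each other, and their sum was too low to test. Saa3, the remaining expressed member of that family, had 0.436 to 7.17 CPM in WT and 0.404 to 2.28 CPM in cKO (log2 fold change -0.92, adjusted p = 0.384, edgeR), with the highest value in WT replicate 1.

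Levels were set in order per transcript length, by deposited TPM. In WT, Pigr stood first at 1689.9 ± 270.1 (SD, n = 5), above and apart from Reg1 at 513 ± 256. Reg1, Reg4 (279 ± 21.7), Reg3g (262 ± 216) and Reg3b (172 ± 198) followed with overlapping ranges. Next came Reg3a at 29.0 ± 22.9, whose range overlapped those of Reg3b, Sprr2a3 (5.65 ± 2.50) and, narrowly, Reg3g. In cKO the order was Pigr at 1873 ± 254 and Reg1 at 1540.1 ± 533, now with overlapping ranges, then Reg3b (449 ± 321), Reg3g (359.5 ± 211) and Reg4 (285 ± 35.3), which overlapped one another. Reg3a (94.2 ± 57.3) followed, with a range below that of Reg4 but overlapping those of Reg3b and Reg3g, and Sprr2a3 (11.5 ± 6.03) came next with a range apart from the others. Retnlb, Saa1 and Saa2 were last in both, at or below 1.04 TPM on average.

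The upstream genes of these programmes were taken from lists, which were chosen with earlier results of these data known. Of 14 cytokine ligands, 3 had enough counts for a test and 2 were higher in cKO, beside 15.6% of all tested genes. These were Il18 and Il33, both epithelial alarm cytokines, at log2 fold changes of 1.51 (adjusted p = 0.0161) and 1.19 (adjusted p = 0.0306, edgeR). Il18, at 8.94 to 42.0 CPM in WT and 48.3 to 83.2 CPM in cKO, made up most of the summed ligands. That sum was 30.4, 52.0, 21.4, 14.8 and 24.9 CPM in WT replicates 1 to 5, the same order as the enterocyte marker sum. Among the cKO animals the 2 orders differed. The part of enterocyte RNA in these differences was not tested. Il22, Il17a, Il17f, Ifng and Il13, the lymphocyte products best known to drive REG, SAA and RELM genes, had at most 1 count in any library. The libraries hold isolated crypts and not whole tissue, so these counts do not give the level of the cytokines in the intestine. Among 21 receptors and signal transducers, 4 were higher and none lower, beside 15.6% and 12.7% of all tested genes, with a median log2 fold change of 0.08. Both chains of the IL-22 receptor were among them, Il22ra1 at 0.50 (adjusted p = 0.00778) and Il10rb at 0.58 (adjusted p = 0.00440, edgeR), each without overlap between groups. The others were Il13ra1, a subunit of the IL-13 receptor, at 0.61 and the kinase Jak2 at 0.78. Stat3 itself, at 52.6 to 65.5 CPM in WT and 57.2 to 74.6 CPM in cKO, gave 0.22 (adjusted p = 0.0875, edgeR).

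Of 21 microbial sensor and NF-kB genes, 20 were tested, with a median log2 fold change of -0.10. In cKO 4 were higher and 1 lower, beside 15.6% and 12.7% of all tested genes. Higher were Tlr3, a sensor of double-stranded RNA, by 0.67, its adaptor Ticam1 by 0.47, Tnfaip3, an inhibitor of NF-kB, by 0.48 and the kinase Irak4 by 0.44. Irak1 was lower, with a log2 fold change of -0.25. Myd88, the adaptor through which bacteria raise Reg3g, stood at 21.1 to 28.5 CPM in WT and 23.3 to 28.8 CPM in cKO (log2 fold change 0.04, adjusted p = 0.767, edgeR).

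Of 20 other inducible defence genes, 15 were tested, 2 were higher and 1 lower, beside 15.6% and 12.7% of all tested genes, and 11 of the 15 estimates were below 0, with a median log2 fold change of -0.36. The chemokine Ccl20 was higher by 1.45 (adjusted p = 0.0211) and the nucleic acid sensor Zbp1 by 0.95 (adjusted p = 0.0289, edgeR). The membrane mucin Muc1 was lower, with a log2 fold change of -2.27 (adjusted p = 0.0381, edgeR). Levels were low: Muc1 had 0.448 to 3.25 CPM in WT and 0.140 to 1.19 CPM in cKO, with overlapping groups. Zbp1 had 2.14 to 5.72 CPM in WT and 5.27 to 11.8 CPM in cKO, also overlapping. Ccl20 had 1.04 to 2.41 CPM in WT and 2.88 to 11.0 CPM in cKO, without overlap. Nos2, Duox2, Duoxa2 and Lcn2, further targets of microbial and IL-22 signals, did not pass and had estimates of -0.55, -0.36, -0.55 and -0.71. Among 12 constitutive antimicrobial genes 10 were tested and 4 fell, beside 12.7% of all tested genes. All 4 are Paneth cell genes: Mptx2 fell by 1.29, Mmp7 by 1.01, Itln1 by 0.68 and Lyz1 by 0.60 on the log2 scale.

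Markers of other cell types were read beside these values. Paneth cell markers were lower in cKO for 6 of 7 tested, stem cell markers for 4 of 6, myeloid markers for 1 of 8 and stromal, endothelial and pancreatic markers for 2 of 9, and none of these lists had a higher gene. Of all tested genes 12.7% were lower and 15.6% higher. Tuft cell markers were higher for 3 of 5, and of 10 T cell, ILC and B cell markers 1 was higher and 1 lower (Cd4, -1.69). Lymphocyte markers summed to 109 to 265 CPM in WT and 123 to 259.6 CPM in cKO. Their part in the values of the members was not tested.

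**Figure D5:**
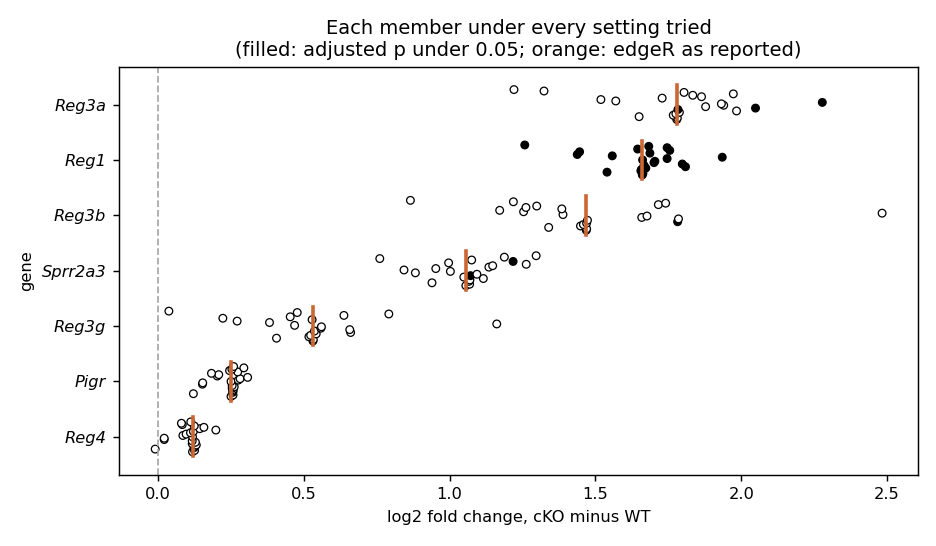
Log2 fold change, cKO minus WT, of the 7 tested members under every setting tried, 1 point per setting, filled where the adjusted p is under 0.05, with an orange bar at the reported edgeR value. Every point of Reg1 is filled, from 1.26 to 1.93, a few points of Reg3a, Sprr2a3 and Reg3b are filled, and those of Reg3g, Pigr and Reg4 are all open.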

How the data were processed

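RNA-seq libraries of jejunal crypts from 5 WT and 5 cKO mice were analysed. The authors aligned reads with STAR and quantified them with RSEM through nf-core/rnaseq 3.0 against GRCm38, Ensembl 95, and deposited expected counts, effective lengths, TPM and FPKM per gene. FPKM was not used, and the strand setting is not given in the sources used here. RSEM divides reads that fit several genes by estimate. Gene symbols and coordinates came from GENCODE M21, which named 54723 of 54838 identifiers, and promoters from RefSeq, which held 9 of the 10 members. Expected counts were rounded and tested in edgeR 4.0.16 (robust quasi-likelihood, TMM, filterByExpr with a minimum count of 10, Benjamini-Hochberg over 14719 genes, threshold 0.05) under R 4.3.3. The fit was tested on simulated data. Intervals are 95%. Log2 CPM for the spread had 0.5 CPM added. Alternatives used DESeq2 1.42.0, limma 3.58.1 and other scalings. Beside the members, genes named from lists are those past the threshold, at most 4 per list by size of change, and others were named for their known role after values were seen. The lymphocyte marker that was higher is not reported here by name. Members and lists were chosen with earlier results of these data known. Labels number the animals and do not name separate litters. Some animals of a genotype share an identifier stem, and the fit treated all 5 animals of a group as independent. The p-values rest on the spread between these animals.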

Additional observations from a re-analysis of the deposited data

Results flagged for a closer look

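Of 14 groups of 5 animals looked at (7 tested members in each genotype), 1 held an animal far from the others. Reg3b in WT replicate 2, at 280.4 CPM, stood above the next WT animal by 0.766 of the whole range of the group, past the critical value of 0.71 for 5 samples. For normally distributed values the rule marks about 1 in 20 such groups by chance, and 14 were looked at, so a single mark can arise by chance. It was applied to CPM and not to log2 CPM, the scale used above for the spread. Without this animal the log2 fold change of Reg3b was 2.48 in place of 1.47 and still did not pass (adjusted p = 0.0826, edgeR). The same library was the highest of the WT animals for Reg1, Reg3a and Reg3g and for the summed enterocyte markers.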

How the results depend on the processing

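Reg1 kept its direction and its call under all 22 alternatives tried. Among member genes, the count past the threshold was 1 as reported, 3 by DESeq2 (Reg1, Reg3a and Sprr2a3), 2 by limma-voom (Reg1 and Reg3a) and from 1 to 2 with single animals left out, the second gene being Reg3a without WT replicate 2 and Sprr2a3 without cKO replicate 2. The cause was not tested. Over all genes, 4167 passed, 3007 to 4684 with single animals left out and 2143 without WT replicates 3 and 4 together, an alternative chosen after seeing the data that leaves fewer samples. When libraries were scaled by total alone, the median log2 fold change of all genes went from -0.03 to -0.16, the split from 2298 higher and 1869 lower to 1541 and 4030, and this reversed Reg4, which had not passed, to -0.009. Limma on log2(TPM + 1) gave 1411 higher and 2760 lower. With the replicate number as a block, 2 members passed, Reg1 and Reg3b (1.78, adjusted p = 0.0469), and 3052 genes in all. The replicate block rests on a number alone: same-numbered animals correlated between -0.201 and 0.099 after removing genotype means, and 0 of 10 libraries correlated best with its own number. The log2 ratio of Reg1 to Reg3g differed by 0.75 to 1.39 with single animals left out and lost p under 0.05 in 4 of 10 such tests and, at 1.32, without WT replicates 3 and 4. The difference for Reg3a ran from -0.533 to 0.081 and became 0.094 without both animals, and that for Reg3b ran from -0.39 to 0.39. Depth limits the reading of Saa1 and Saa2, at most 1 count in any library, and of Retnlb, which passed in none of the 9 settings that tested it (lowest adjusted p 0.309). Without a filter 27960 genes were tested and Reg1 remained the only member called.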
